A study of Mus musculus with 8 samples.

Results

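The genes described here are 7 mouse genes of antigen presentation by major histocompatibility complex (MHC) class II, out of 27835 genes on the arrays. In order of role they are Ciita, the co-activator that switches class II genes on, the chain genes H2-Ea, H2-Eb1, H2-Aa and H2-Ab1, the invariant chain gene Cd74, and H2-DMa. They were taken by their Ensembl gene IDs, which are ENSMUSG00000022504_at for Ciita, ENSMUSG00000036322_at for H2-Ea, ENSMUSG00000060586_at for H2-Eb1, ENSMUSG00000036594_at for H2-Aa, ENSMUSG00000073421_at for H2-Ab1, ENSMUSG00000024610_at for Cd74 and ENSMUSG00000037649_at for H2-DMa. These symbols came with the list of members, since the deposited table and the reference table used here pair 0 of the IDs with a symbol. H2-Ea was chosen by its measured values, log2 intensities at 2 levels on these arrays, and the other 6 genes were added as its family. The H2-Ea values are therefore a description and carry no test. RNA came from colonies of proB cells, early B cell progenitors, grown for 1 week from mouse bone marrow in methylcellulose, a semi-solid medium. HMGN1 is a protein that binds nucleosomes. There were 4 arrays from colonies of a transgenic line labelled as over-expressing HMGN1, and 4 from wild-type colonies. The promoter of the transgene, the strain, age and H2 haplotype of the mice, and whether colonies or mice were pooled are not given in the sources used here, nor is it said whether the 4 samples of a genotype came from separate mice. A p-value here thus sets a difference against the variation among these arrays, part of which may be technical.

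MHC class II molecules are pairs of an alpha and a beta chain that show peptides to CD4 T cells. Mice have 2 classical class II molecules: A, made of the products of H2-Aa and H2-Ab1, and E, made of the products of H2-Ea and H2-Eb1. The invariant chain (Cd74) guides new pairs to the endosome and fills their groove. The DM heterodimer, whose alpha chain is encoded by H2-DMa, then exchanges the remaining fragment of the invariant chain for peptide. B cells, macrophages and dendritic cells carry class II molecules, and in the B lineage of the mouse their surface level is low on early progenitors and high on mature cells. H2-Ea differs between inbred strains: mice of the H2-b haplotype, C57BL/6 among them, have a deletion that removes its promoter and make no E molecule, while mice of the H2-d and H2-k haplotypes make one. In the RefSeq annotation of the C57BL/6J genome, H2-Ea is listed as a transcribed pseudogene, and the other 6 genes as protein coding. Of the 7 genes, 5 lie on chromosome 17 (the H2 genes), Ciita on chromosome 16 and Cd74 on chromosome 18.

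Each array gave 1 intensity per gene, on a linear scale after RMA (background correction, quantile normalization and summary of probes). Array medians lay between 95.8 and 100.1. On the first principal component over all genes (29.9% of the variance), HMGN1-overexpressing arrays scored -17.5 to -0.55 and wild-type replicates 1, 2 and 4 scored -0.84 to 2.51, while wild-type replicate 3 stood apart at 36.2. Genotype results are therefore also given without it. The number of arrays limits the precision, and within a genotype the log2 intensity of a typical gene varied with an SD of 0.12 (median over genes). The HMGN1 transgene and markers of other class II-bearing cells, such as macrophages and dendritic cells, were not analysed here, because their IDs were not paired with names. In RNA from whole colonies, fewer cells of a type and less RNA per cell cannot be told apart.

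H2-Ea was low on every HMGN1-overexpressing array and on 1 wild-type array, and high on the 3 remaining wild-type arrays. Its intensity was 107, 118, 117 and 109.9 in HMGN1-overexpressing replicates 1 to 4. In wild-type replicates 1 to 4 it was 140.3, 2129.6, 1720.4 and 1731. The genotypes did not overlap, since wild-type replicate 1 lay just above the highest HMGN1-overexpressing array, but replicate 1 itself was at the low level. Genes lower in HMGN1-overexpressing colonies with no overlap between the genotypes made up 2.66% of all genes, and nothing is read from H2-Ea being one of them.

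**Figure D1:**
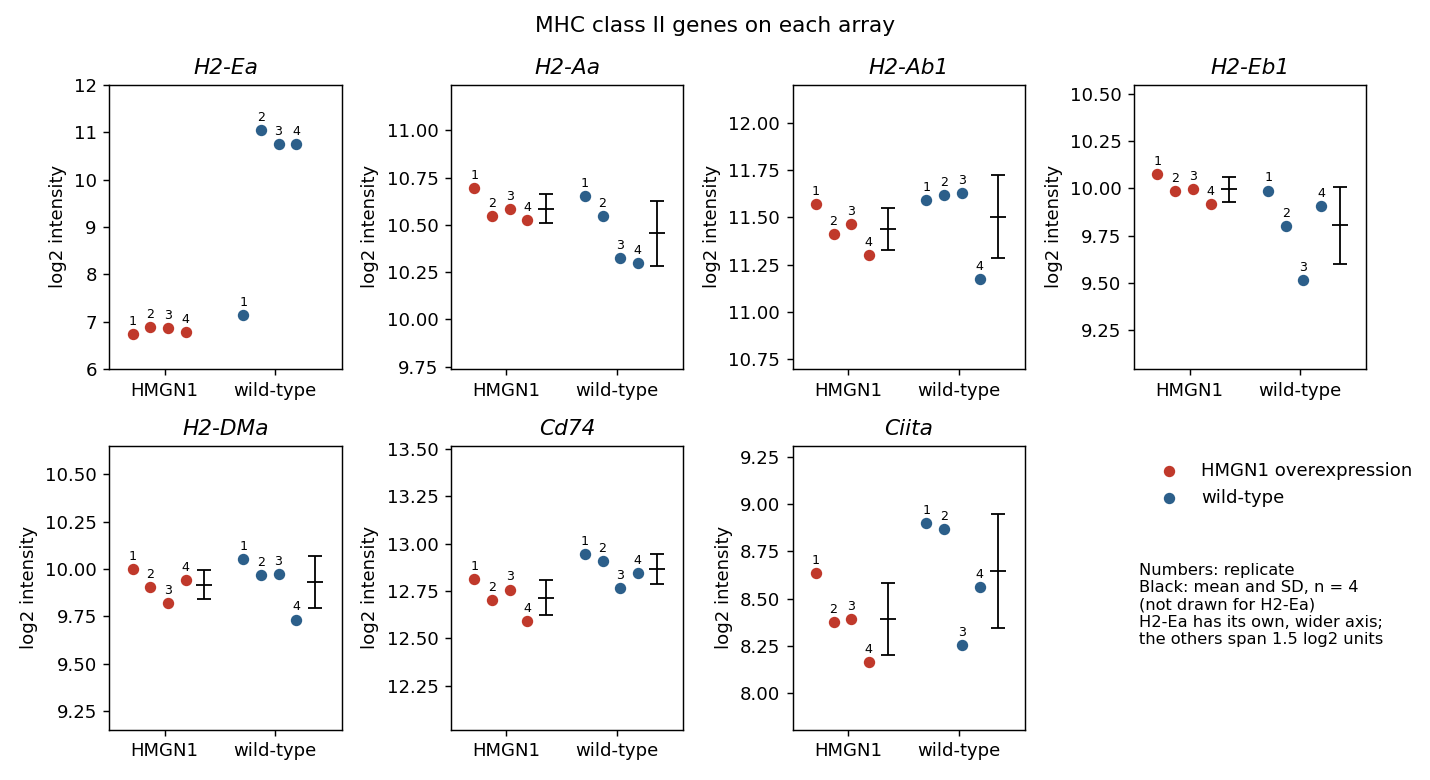
Log2 intensity of each of the 7 class II genes on each array (points, numbered by replicate), with HMGN1-overexpressing arrays left and wild-type arrays right, and mean and SD (n = 4) in black for the 6 genes other than H2-Ea. H2-Ea lies between 6.75 and 7.13 on 5 arrays and between 10.75 and 11.06 on wild-type replicates 2, 3 and 4, while the 2 genotypes overlap in each of the 6 other genes.

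On the log2 scale, the upper level of H2-Ea was 10.85 ± 0.18 (SD, n = 3 arrays) in wild-type replicates 2 to 4, and the lower level was 6.88 ± 0.15 (SD, n = 5 arrays) in the other arrays. The geometric mean of the upper level was 15.7 times that of the lower. No array lay between the levels: the lowest of the upper arrays exceeded the highest of the lower ones by 3.62 on the log2 scale, and the widest range within a level was 0.39. Within the lower level the 4 HMGN1-overexpressing arrays spanned only 0.14 on the log2 scale. Wild-type replicate 1 lay 0.25 above the highest of them and 1.24-fold above their geometric mean. The mean log2 difference between the genotypes, -3.10, thus mixes 2 levels within the wild-type group, and it was -4.03 without wild-type replicate 1. Whether the mice differed in H2 haplotype was not tested.

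The same separation of wild-type replicates 2 to 4 from the other 5 arrays was looked for in all genes, as a description of which patterns are like that of H2-Ea. The 3 arrays did not overlap the other 5 in 1602 genes, 5.76% of all, with 581 (2.09%) higher and 1021 (3.67%) lower in the 3 arrays. A gap of at least 0.5 on the log2 scale was left by 3 genes higher and 3 genes lower in these arrays, and a gap of 2-fold or more by 1 and 2 genes (0.0108% of all). As the split was chosen for the pattern of H2-Ea, the rank of H2-Ea on it is only a description. H2-Ea had the widest gap of all genes. The gene next to it in width, ENSMUSG00000056116, ran the opposite way, at 4.66 ± 0.19 (SD, n = 3) on the log2 scale in wild-type replicates 2 to 4 and 8.39 ± 0.16 (SD, n = 5) in the other arrays, with a gap of 3.37. ENSMUSG00000092222 was also lower in the 3 arrays, at 5.67 ± 0.21 against 7.29 ± 0.36, with a gap of 1.00. Wild-type replicate 1 sat with the HMGN1-overexpressing arrays in both.

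Among genes higher in the 3 arrays, none other than H2-Ea had a gap of 2-fold. ENSMUSG00000096649 had a gap of 0.65 but no common upper level, as its log2 intensity ranged from 4.33 to 9.81 within wild-type replicates 2 to 4. ENSMUSG00000092365 did have 2 narrow levels, at 11.65 ± 0.04 in the 3 arrays and 10.88 ± 0.08 in the other 5, but they were only 0.61 apart. What these genes encode is not given by the tables used here.

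**Figure D2:**
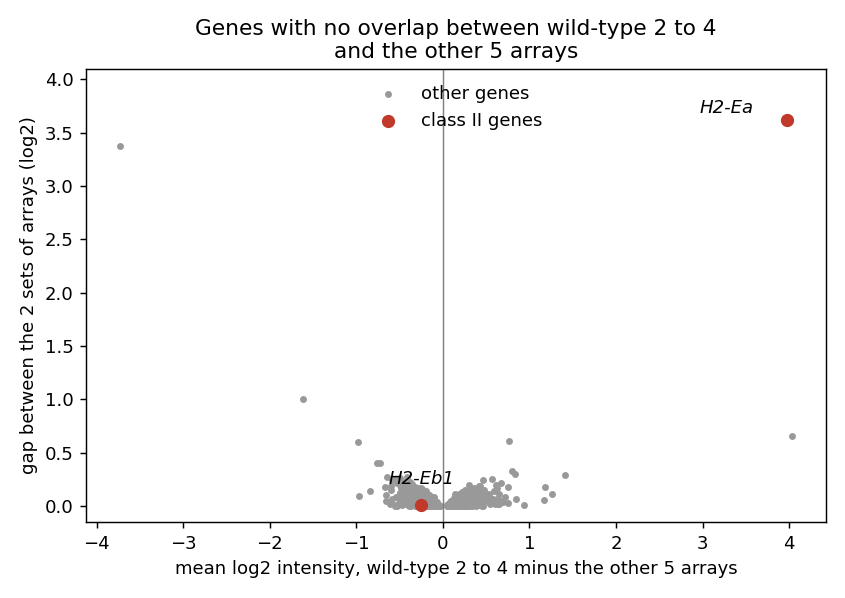
Each point is 1 of the 1602 genes in which wild-type replicates 2 to 4 do not overlap the other 5 arrays, with the mean log2 difference between these sets of arrays on the x axis and the log2 gap between them on the y axis. H2-Ea (red, upper right) has a gap of 3.62, a gene of the opposite direction has 3.37 (upper left), and H2-Eb1 (red) lies near a gap of 0 on the left.

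H2-Eb1, which encodes the beta chain that pairs with the H2-Ea product, did not have this pattern of levels. Its intensity was 1078, 1014, 1023 and 967 in HMGN1-overexpressing replicates 1 to 4. In wild-type replicates 1 to 4 it was 1016, 892, 733 and 961. The lowest and the highest of the 8 arrays were thus 733 and 1078, and the 5 arrays with low H2-Ea were the 5 highest for H2-Eb1. The 3 arrays with high H2-Ea were the 3 lowest, by a mean of -0.25 on the log2 scale relative to the 5. The margin between these sets was 0.01 on the log2 scale, and 0.05 with array medians subtracted. The sets overlapped after a further quantile normalization (margin -0.01). Genes lower in the 3 arrays without overlap were 3.67% of all.

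By genotype, H2-Eb1 averaged 1021 ± 45.6 in HMGN1-overexpressing colonies and 901 ± 123 in wild-type colonies (SD, n = 4 each), a log2 fold change of 0.19 (SE 0.098) that did not pass over all genes (limma adjusted p = 0.538). When the lowest array, wild-type replicate 3, was left out, the log2 fold change was 0.09 (limma adjusted p = 0.669).

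H2-Aa encodes the alpha chain of the A molecule. Its intensity was 1656, 1493, 1533 and 1472 in HMGN1-overexpressing replicates 1 to 4, against 1607, 1497, 1282 and 1261 in wild-type replicates 1 to 4. Wild-type replicates 3 and 4 were the 2 lowest arrays, and the other 2 wild-type arrays lay within the range of the HMGN1-overexpressing arrays. The log2 fold change was 0.13 (SE 0.089, limma adjusted p = 0.647), and 0.09 without wild-type replicate 3 (limma adjusted p = 0.785).

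Of the 7 genes, H2-Aa and H2-Eb1 had the lowest mean in the 3 arrays of high H2-Ea relative to the other 5 (-0.21 and -0.25 on the log2 scale). Their upstream sequences are shown because class II genes share a promoter module, in which the factors RFX, CREB and NF-Y bind the X, X2 and Y boxes and recruit CIITA. Each is the 250 bases before the RefSeq start of the gene in GRCm38.p6, 5′ to 3′ on the strand of the gene, at chr17:34287824-34288073 (minus strand) for H2-Aa and chr17:34305617-34305866 (plus strand) for H2-Eb1. Capitals mark matches, on either strand, to GATTGG (the Y box core), ACNGATG (an X box core) and TGACGTCA (the cyclic AMP response element, which CREB binds).
H2-Aa: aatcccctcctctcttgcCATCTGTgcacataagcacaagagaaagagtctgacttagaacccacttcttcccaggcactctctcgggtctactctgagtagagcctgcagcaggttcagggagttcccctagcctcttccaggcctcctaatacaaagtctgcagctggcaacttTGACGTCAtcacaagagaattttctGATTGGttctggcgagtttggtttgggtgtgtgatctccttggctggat
H2-Eb1: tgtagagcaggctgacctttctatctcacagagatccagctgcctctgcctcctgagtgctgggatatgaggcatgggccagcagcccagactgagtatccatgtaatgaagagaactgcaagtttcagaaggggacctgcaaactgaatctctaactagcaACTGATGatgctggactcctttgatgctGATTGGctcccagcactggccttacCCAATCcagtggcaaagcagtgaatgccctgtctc
The GATTGG match began 49 bases before the start in H2-Aa and 60 bases before it in H2-Eb1, and H2-Eb1 held another on the opposite strand at base 35. In H2-Eb1 the ACNGATG match began at base 88, upstream of the GATTGG match. In H2-Aa the only ACNGATG match was on the opposite strand, from base 232, well upstream of TGACGTCA, which began at base 74. A match is a run of letters only, and a box with other letters is not marked. Whether factors bind these matches was not tested. No match overlapped another. Among 32851 windows of the same length in the RefSeq table, GATTGG was found in 14.6%, ACNGATG in 8.31% and TGACGTCA in 1.55%. The table held windows for 3 of the 7 genes, these 2 and H2-DMa. In H2-DMa, GATTGG began 199 bases before the start in the window at chr17:34125268-34125517, farther out than in the 2 genes shown. That window held no ACNGATG or TGACGTCA, and the window at chr17:34122582-34122831 held no match to any of the motifs.

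H2-Ab1, the beta chain gene of the A molecule, had an intensity of 3037, 2719, 2822 and 2524 in HMGN1-overexpressing replicates 1 to 4, against 3083, 3139.8, 3169 and 2312 in wild-type replicates 1 to 4. Wild-type replicate 4 was the lowest of all 8 arrays and the 3 other wild-type arrays were the 3 highest. The log2 fold change was -0.07 (SE 0.11, limma adjusted p = 0.864), -0.18 without wild-type replicate 4 (limma adjusted p = 0.458) and -0.03 without replicate 3 (limma adjusted p = 0.962). H2-Ab1 was not separated along the H2-Ea levels, with a mean log2 intensity of 11.47 in wild-type replicates 2 to 4 and 11.47 in the other arrays.

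H2-DMa had an intensity of 1025, 959, 905 and 982 in HMGN1-overexpressing replicates 1 to 4, and 1061, 1000.2, 1006 and 851 in wild-type replicates 1 to 4. All HMGN1-overexpressing arrays lay inside the range of the wild-type arrays. Its log2 fold change was -0.01 (SE 0.079, limma adjusted p = 0.967), with the sign turned at 0.0030 when array medians were subtracted and at 0.00035 without wild-type replicate 3. The 95% interval ran from 0.876-fold to 1.12-fold.

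Cd74 and Ciita lay lower in HMGN1-overexpressing colonies, by amounts that did not pass the test. Cd74 had an intensity of 7192, 6664, 6926 and 6166 in HMGN1-overexpressing replicates 1 to 4, against 7880.2, 7696, 6959 and 7357 in wild-type replicates 1 to 4. Only 1 HMGN1-overexpressing array, replicate 1, exceeded the lowest wild-type array, replicate 3. The mean was 6737 ± 437 in HMGN1-overexpressing colonies and 7473 ± 405 in wild-type colonies (SD, n = 4 each), and the log2 fold change was -0.15 (SE 0.069, limma adjusted p = 0.495). With wild-type replicate 3 left out, it was -0.18 (limma adjusted p = 0.368).

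Ciita had an intensity of 397, 332, 336 and 287 in HMGN1-overexpressing replicates 1 to 4. In wild-type replicates 1 to 4 it was 478, 467, 306 and 378. Wild-type replicate 3 lay below 3 of the 4 HMGN1-overexpressing arrays, and the 2 highest arrays were both wild-type. The log2 fold change was -0.25 (SE 0.15, limma adjusted p = 0.589). With wild-type replicate 3 left out, the value became -0.38, still short of the threshold (limma adjusted p = 0.28).

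Of the 6 genes other than H2-Ea, 0 passed an adjusted p of 0.05 by limma, against 4 of all 27835 genes (0.0144%). At an unadjusted p under 0.05 there were also 0 of 6 by limma, against 10.4% of all genes. In 0 of the 6 were the genotypes free of overlap, against 6.81% of all genes. Of the 6, 4 were lower and 2 higher in HMGN1-overexpressing colonies (3 and 3 with array medians subtracted, where H2-DMa changed sign), with a median log2 fold change of -0.04 against -0.002 over all genes. A p above the threshold does not show equal levels, but the 95% interval of each of the 6 lay inside 2-fold in both directions, as it did for 98.7% of all genes. The widest was that of Ciita, from 0.665-fold to 1.06-fold.

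**Figure D3:**
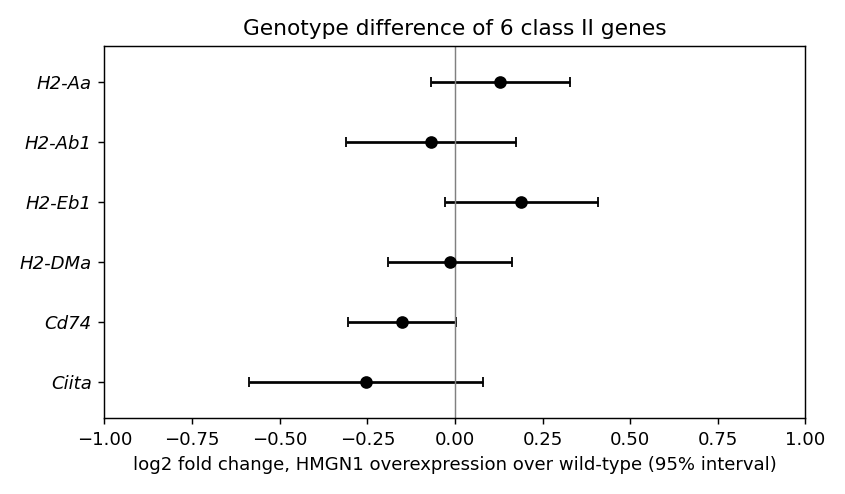
Log2 fold change of each class II gene other than H2-Ea, HMGN1-overexpressing over wild-type colonies (points), with the 95% interval of the limma fit (bars). Every interval includes 0, from H2-Eb1 at 0.19 to Ciita at -0.25.

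The same array was often the highest of its genotype among the 6 genes. HMGN1-overexpressing replicate 1 was the highest of its 4 arrays in 6 of the 6 genes, while it was highest for 25.4% of all genes, and it was the lowest of the 4 for H2-Ea. HMGN1-overexpressing replicate 4 was the lowest in 5 of the 6, H2-DMa being the exception, against 27.2% of all genes. In the wild-type group, replicate 1 was the highest in 5 of the 6, all but H2-Ab1, against 26.4% of all genes. The lowest wild-type array was replicate 3 in 3 of the 6 and replicate 4 in the other 3, against 32.9% and 21.0% of all genes. The 6 genes share RNA samples and their normalization, so these counts are a description. The SD of log2 intensity was larger in wild-type than in HMGN1-overexpressing arrays for 5 of the 6, Cd74 being the exception, and for 61.1% of all genes.

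The closest pair was Cd74 and Ciita, whose log2 intensities varied together over the 8 arrays. Pearson's r was 0.923 (two-sided exact permutation p = 0.0010, adjusted p = 0.0153 over the 15 pairs of the 6 genes), and Spearman's rho was 0.905 (exact permutation p = 0.0046, adjusted p = 0.0685). Pearson's r was 0.827 without the 2 arrays farthest from the median of Ciita, 0.872 without the 2 farthest from that of Cd74, 0.927 after each genotype's mean was removed, and 0.968 without wild-type replicate 3. With the genotype means removed, Ciita also had an r of 0.874 with H2-Aa and 0.805 with H2-Eb1 (0.408 and 0.270 before). With H2-Ab1 and H2-DMa it was 0.337 and 0.318 (0.394 and 0.311 before). Likewise, Cd74 had an r of 0.785 with H2-Aa and 0.736 with H2-Eb1 (0.136 and 0.011 before). With H2-Ab1 and H2-DMa it was 0.406 and 0.206 (0.435 and 0.198 before). Without wild-type replicate 3 and with the means kept, Ciita had an r of 0.247 with H2-Aa and -0.182 with H2-Eb1. With H2-Ab1 and H2-DMa it was then 0.649 and 0.432. In the same order of genes, Cd74 had an r of 0.102, -0.152, 0.515 and 0.221. The values with the means removed were not tested, not set against all genes and not repeated without wild-type replicate 3. Within a genotype there are too few arrays for a value of its own. A higher r with Ciita than that of Cd74 was found for 30 of the 27834 other genes (0.108%).

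No other pair passed after adjustment. The chains of the A molecule, H2-Aa with H2-Ab1, had an r of 0.417 (exact permutation p = 0.298, adjusted p = 0.612) and a rho of 0.333 (exact permutation p = 0.428, adjusted p = 0.626). The r was 0.612 without the 2 arrays farthest from the median of H2-Aa and 0.842 without wild-type replicate 3. It was 0.619 after each genotype's mean was removed. It turned to -0.232 without the 2 arrays farthest from the median of H2-Ab1, so its sign depended on which arrays were kept. H2-Aa with H2-Eb1, of different molecules, had an r of 0.702 (exact permutation p = 0.0459, adjusted p = 0.229) and a rho of 0.786 (exact permutation p = 0.0279, adjusted p = 0.209), and an r of 0.691 without the 2 arrays farthest from the median of H2-Aa, 0.827 without the 2 farthest from that of H2-Eb1 and 0.529 without wild-type replicate 3. H2-Ab1 with H2-DMa had an r of 0.781 (exact permutation p = 0.0222, adjusted p = 0.167) and a rho of 0.714 (exact permutation p = 0.0576, adjusted p = 0.288), and an r of 0.714 without the 2 arrays farthest from the median of H2-Ab1 and 0.630 without the 2 farthest from that of H2-DMa. Of the 15 pairs, 13 had a positive r and 1, Cd74 with Ciita, passed after adjustment by Pearson's r. By Spearman's rho, 0 passed, with 2 of the 15 at an unadjusted exact permutation p under 0.05. H2-Ea was left out, because its arrays fall into 2 separate clusters.

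**Figure D4:**
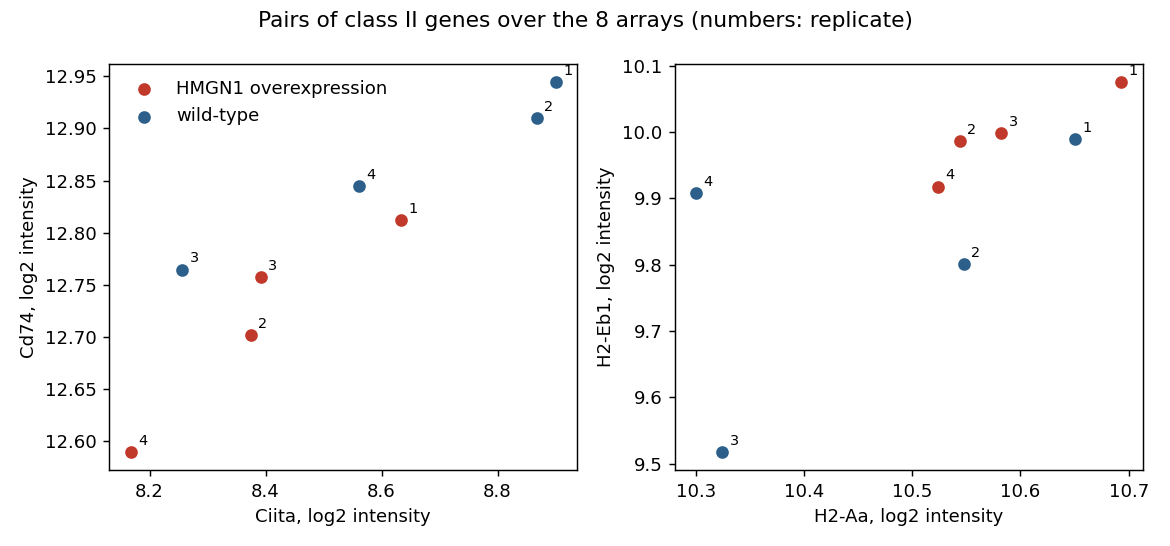
Log2 intensity of Cd74 against Ciita (left) and of H2-Eb1 against H2-Aa (right) on the 8 arrays, with replicate numbers beside the points and HMGN1-overexpressing arrays in red, wild-type arrays in blue. Cd74 and Ciita follow one line across both genotypes (r = 0.923), while wild-type replicates 3 and 2 lie low for H2-Eb1 (r = 0.702 over all arrays).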

How the data were processed

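The deposited values are RMA intensities, per the submitters' processing notes. They ranged from 5.80 to 17578, from which a linear scale was inferred. Which probes make up a gene is not stated in the labels. There were 0 columns of other samples. Log2 of the intensity was fitted over all 8 arrays and 27835 genes with limma 3.58.1 in R 4.3.3 (lmFit, then eBayes), without a filter, with Benjamini-Hochberg adjustment and a threshold of 0.05. Intensity means carry the SD, and fold changes the SE of the fit. The fit was tested on simulated data. Correlations used exact permutation over 8 arrays (scipy 1.17.1). The members and lists were chosen with earlier results of these data known. Genes outside the members were named by ID, the 2 of widest gap in each direction; the other lists of pathway and cell type genes, set by symbol, and the genes beside H2-Ea were not analysed here. Upstream sequences came from RefSeq (GRCm38.p6). Alternatives were 2 normalizations, array weights, a replicate block, a signal filter, log2(intensity + 16), a trended and robust variance, and leaving out each array. Arrays of the same number in the 2 genotypes did not deviate together (r from -0.237 to -0.078).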

Additional observations from a re-analysis of the deposited data

Results flagged for a closer look

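An array far from the 3 others of its genotype was looked for in 16 groups of 4 values, the 7 genes and the first principal component in each genotype. It was found in 3. One of these, H2-Ea in wild-type colonies, was fixed by the choice of that gene, so the number is not set against chance. H2-Ea in wild-type replicate 1 had a log2 intensity of 7.13, far below the other wild-type arrays, as described above. H2-Ab1 in wild-type replicate 4 had a log2 intensity of 11.18, against 11.59 to 11.63 in the 3 others. Wild-type replicate 3 scored 36.2 on the first principal component over all genes.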

How the results depend on the processing

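None of the 6 genes other than H2-Ea passed the threshold by limma under any of the alternatives run. The lowest adjusted p by limma was 0.28 (Ciita without wild-type replicate 3). At an unadjusted p under 0.05 by limma there were 0 to 2 of the 6 genes. There were 2 with array weights, without wild-type replicate 1 and without wild-type replicate 3. Of all 27835 genes, 3122, 2896 and 3038 were at that level in these settings, against 2902 (10.4%) in the main fit. With the replicate number as a block, 0 of the 6 genes and 0 of all genes were called by limma. The block thus removed the 4 calls made without it, with 2374 genes at an unadjusted p under 0.05 by limma. Over all genes, the 4 called became 0 to 40 with 1 array left out, the 40 without HMGN1-overexpressing replicate 1. Of the 6 genes, 5 kept their direction under each alternative. The exception was H2-DMa, near 0 throughout: its log2 fold change was 0.0030 with array medians subtracted, and -0.0804 to 0.0258 with 1 array left out. The cause was not tested. The gap between the H2-Ea levels was 3.47 to 3.66 with array medians subtracted, quantile normalization or log2(intensity + 16). The small margin of H2-Eb1 was 0.0513 with array medians subtracted and 0.0091 with log2(intensity + 16), and turned to -0.0146 with quantile normalization. The tests of the symbol lists were not run, and no measure of signal over background was used.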
